A study of Mus musculus with 46 samples.

Results

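The macrophage and monocyte genes described here are a list of 43 symbols, chosen with earlier results of these data known. They were found by gene name in the deposited count table, where all 43 were present among 55359 genes. A pair of classes were kept apart, as the list defines them. The resident-type class holds Lyve1, Timd4, Folr2, Cd163 and Mrc1, and the recruited-type class holds Ccr2, Ly6c2, Plac8 and Chil3. No symbol of the list was repeated in the table. All 43 passed the filter on low counts in both library kits, which all groups of a kit shared, so some passed through the groups where they were high. With the filter applied to the compared groups alone, 39 of the 43 passed at 1 week and 40 of the 43 in cGas null hearts.

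The libraries measured messenger RNA of adult mouse hearts in which Lmna, the gene of lamins A and C, had been deleted from heart muscle cells. Every mouse carried Myh6MCM Tg/0, a tamoxifen-activated Cre made in cardiomyocytes (spelled My6MCM Tg/0 in the labels of the 11 NEBNext F/F libraries, and read here as the same transgene), and every mouse received tamoxifen at 6 to 8 weeks of age (100 µL of a 4 mg/mL solution daily for 4 days), controls included. The Cre is therefore not aimed at the macrophages themselves. The NEBNext poly(A) set held Lmna F/F and Lmna +/+ hearts (wild type below): 4 and 5 at 1 week after tamoxifen, 2 and 3 at 11 days, and 5 and 7 at 2 weeks. The QuantSeq set, which counts a tag near the 3' end of each transcript, was taken at 2 weeks and crossed Lmna with a null allele of cGas, the sensor of cytosolic DNA. It held 4 Lmna F/F and 4 Lmna F/+ hearts that were cGas null/null, and 6 Lmna F/F and 6 Lmna F/+ hearts that were cGas +/+. F/+ controls carry a floxed allele as well. Hearts were perfused before extraction, and nothing in the labels says that each heart is a separate mouse. The spread that p-values rest on is therefore that between libraries. The question the design addresses is when the heart's transcripts change after Lmna deletion, and whether the change needs cGas.

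Resident macrophages of the mouse heart are largely seeded before birth and maintain themselves locally. They carry Lyve1, Timd4 and Folr2, and many carry the scavenger receptors Cd163 and Mrc1. Monocytes from bone marrow and spleen carry Ccr2 and Ly6c2, enter an injured heart along a gradient of Ccl2 and Ccl7, and turn into macrophages there. None of these genes is perfectly specific: Lyve1 is also a gene of lymphatic endothelium, and Plac8 and Chil3 are also made by neutrophils.

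Total counts were 8477358 to 33993289 per library. Lmna, which the rest of the heart's cells still express, was at 27 to 36.9 CPM in F/F hearts at 1 week and at 45 to 67.7 CPM in their wild type controls, without overlap, but the groups overlapped at 11 days, and also at 2 weeks, with 42.2 to 108 CPM in F/F hearts and 105 to 125 CPM in wild type hearts. In QuantSeq, Lmna was at 16.4 to 28.6 CPM in the F/F and 19.2 to 26 CPM in the F/+ hearts, a 3' tag that checks the deletion only if the lost part includes it. Among F/F hearts Cgas was at 0.609 to 1.2 CPM in cGas null and 1.97 to 3.79 CPM in cGas +/+ hearts. Among F/+ hearts it was at 0.258 to 0.819 CPM and 0.851 to 2.39 CPM, so cGas genotypes did not overlap within either Lmna genotype. CPM here are counts scaled to library size with TMM factors.

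A feature of these genes that the list did not use is their promoter. Spi1, itself a member, encodes PU.1, the transcription factor that sets up the macrophage lineage and binds a purine-rich box whose core was searched as GAGGAA on either strand (TTCCTC when read on the other). RefSeq promoters of GRCm38.p6, from 250 bases before to 50 bases after the start, were held for 34 of the 43 genes, and 17 of the 34 (50%) had the box in at least 1 promoter, against 31.3% of 27025 genes with a promoter of that length. Counted by promoter, with overlapping promoters of a gene each counted, the shares were 48.8% of 41 and 28.3% of 32851. A match of 6 letters is a description and not a binding site. The promoters of 4 class genes are shown because they hold from 0 to 3 boxes, with the box in capitals. Plac8 (chr5:100572156-100572455, minus strand) and Ly6c2 (chr15:75111922-75112221, minus strand) each had 2 boxes. Both genes have a second promoter, not shown. That of Plac8 (chr5:100563047-100563346, minus strand) had 0 boxes. That of Ly6c2 (chr15:75111888-75112187, minus strand) overlaps the one shown and had the same 2 boxes. Mrc1 (chr2:14229164-14229463, plus strand) had 3. Ccr2 (chr9:124101933-124102232, plus strand) had 0.
Plac8: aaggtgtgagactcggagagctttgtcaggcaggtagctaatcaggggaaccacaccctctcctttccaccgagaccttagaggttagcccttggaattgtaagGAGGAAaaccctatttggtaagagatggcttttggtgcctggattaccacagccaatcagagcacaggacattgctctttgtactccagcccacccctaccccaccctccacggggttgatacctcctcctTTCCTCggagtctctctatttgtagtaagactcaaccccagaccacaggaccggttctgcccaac
Ly6c2: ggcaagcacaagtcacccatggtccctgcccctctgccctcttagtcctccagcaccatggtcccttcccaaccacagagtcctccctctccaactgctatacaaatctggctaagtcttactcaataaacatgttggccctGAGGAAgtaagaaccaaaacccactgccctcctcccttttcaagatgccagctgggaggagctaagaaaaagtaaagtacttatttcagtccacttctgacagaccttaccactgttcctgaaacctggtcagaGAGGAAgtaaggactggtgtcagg
Mrc1: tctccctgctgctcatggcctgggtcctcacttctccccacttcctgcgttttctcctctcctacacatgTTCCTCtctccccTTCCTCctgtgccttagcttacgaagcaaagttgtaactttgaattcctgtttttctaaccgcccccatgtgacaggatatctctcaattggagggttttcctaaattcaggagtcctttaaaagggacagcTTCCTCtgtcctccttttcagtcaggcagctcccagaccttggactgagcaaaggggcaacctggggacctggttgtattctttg
Ccr2: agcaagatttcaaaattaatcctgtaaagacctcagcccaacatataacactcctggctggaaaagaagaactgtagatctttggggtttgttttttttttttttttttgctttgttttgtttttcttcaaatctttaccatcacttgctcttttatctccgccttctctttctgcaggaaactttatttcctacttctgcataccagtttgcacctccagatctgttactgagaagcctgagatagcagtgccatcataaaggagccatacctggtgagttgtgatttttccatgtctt
Boxes were therefore present in and absent from promoters of the recruited-type class. The resident-type promoters of Folr2, Cd163 and Timd4 had 0 boxes in this window, and so did that of Chil3.

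At 2 weeks the F/F hearts of the NEBNext set had more macrophage and monocyte transcript almost throughout the list. Of the 43 genes 41 rose and 0 fell (edgeR quasi-likelihood test, Benjamini-Hochberg adjusted p under 0.05 over 15627 genes), against 16.2% of all genes tested that rose and 13% that fell. The median log2 fold change was 2.18 for the 43 genes and 0.04 for all genes. In 32 of the 43, every F/F heart was above every wild type heart, which held for 6.68% of all genes. In whole-heart RNA, more cells of a type and more transcript per cell cannot be told apart.

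The recruited-type genes rose most as a class. Ccr2, the receptor for Ccl2, was at 11.1, 11.5, 35.1, 11.9 and 21.5 CPM in the 5 F/F hearts, against 0.752 to 1.52 CPM in the 7 wild type hearts (median 1 CPM). The groups were far apart, with no F/F heart near a wild type heart, and the log2 fold change was 4.06 ± 0.42 (SE; edgeR adjusted p = 8.91e-07). Plac8, a small cysteine-rich protein gene of myeloid cells, was at 1.29, 13.4, 33.3, 10 and 14.7 CPM in F/F hearts, against 0.148 to 0.79 CPM in wild type hearts (median 0.507 CPM). All F/F hearts were above all wild type hearts, the first of them only slightly (4.47 ± 0.56, adjusted p = 6.31e-06). Ly6c2, a surface protein gene of inflammatory monocytes, was at 0.617, 5.01, 7.73, 4.19 and 7.62 CPM in F/F hearts, against 0.203 to 0.46 CPM in wild type hearts (median 0.351 CPM), a log2 fold change of 3.67 ± 0.56 (adjusted p = 4.9e-05). Chil3, which encodes the secreted chitinase-like protein Ym1, was at 0.729, 4.86, 9.13, 4.42 and 6.61 CPM in F/F hearts, against 0 to 0.414 CPM in wild type hearts (median 0.0502 CPM), and rose by 4.96 ± 0.75 (adjusted p = 4.36e-05). For both genes the groups did not overlap, and the same F/F heart was the lowest. The fold of Chil3 rests on a few reads in wild type hearts.

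The resident-type genes moved less, and 3 of 5 rose. Mrc1, the mannose receptor, was at 68.4, 82.2, 94.5, 53.6 and 58.2 CPM in F/F hearts, against 12.6 to 34.3 CPM in wild type hearts (median 26.2 CPM). These groups did not overlap (log2 fold change 1.74 ± 0.25, edgeR adjusted p = 2.95e-05). Folr2, a folate receptor, was at 22.1, 48.2, 63.7, 36.3 and 42.4 CPM in F/F hearts, against 14.6 to 29.4 CPM in wild type hearts (median 21.7 CPM). The first F/F heart lay inside the wild type range and the other 4 above it (0.95 ± 0.23, adjusted p = 0.00284). Lyve1, a hyaluronan receptor, was at 57.9, 42, 47.4, 28.1 and 33 CPM in F/F hearts, against 14.9 to 37.8 CPM in wild type hearts (median 26 CPM). Here 2 F/F hearts lay inside the wild type range (0.83 ± 0.28, adjusted p = 0.0286). The call for Lyve1 was lost, at adjusted p between 0.0584 and 0.106, without any 1 of 4 libraries (F/F replicate 1, 2 or 3, or wild type replicate 6). Cd163, the haemoglobin scavenger receptor, was at 22.6, 25, 28, 14.1 and 19.6 CPM in F/F hearts, against 7.52 to 23.9 CPM in wild type hearts (median 20.4 CPM), and did not pass the test (0.63 ± 0.27, adjusted p = 0.077). Without F/F replicate 1 it did, at 0.82 (adjusted p = 0.0347). Timd4, a phosphatidylserine receptor, was at 2.24, 3.29, 3.64, 2.98 and 3.81 CPM in F/F hearts, against 1.2 to 3.74 CPM in wild type hearts (median 2.47 CPM), and did not pass either (0.55 ± 0.28, adjusted p = 0.15).

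**Figure D1:**
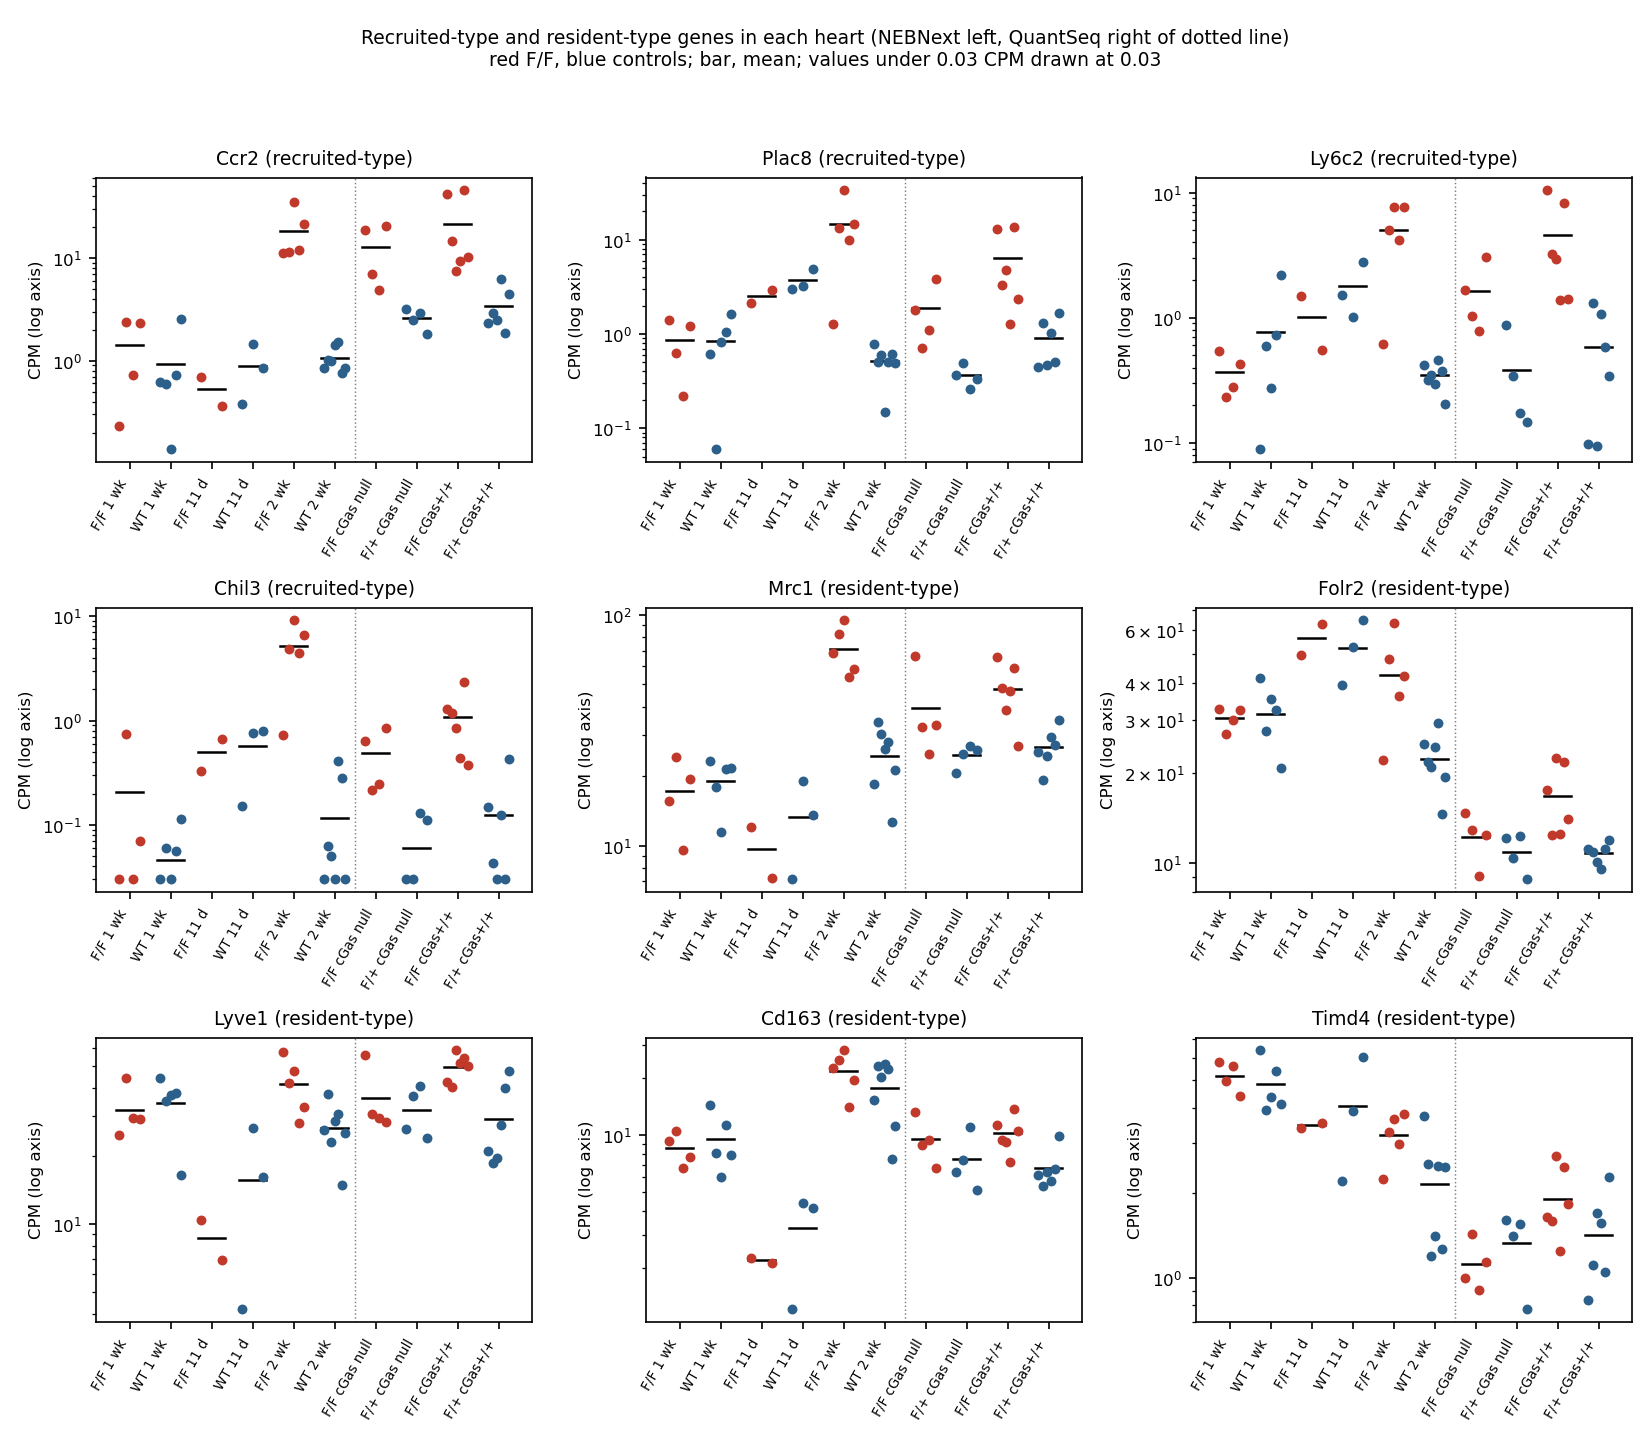
CPM on a log axis for the 4 recruited-type and 5 resident-type genes in each library, with F/F in red, controls in blue and a bar at the group mean; NEBNext groups stand left of the dotted line and QuantSeq groups, all at 2 weeks, right of it. In the 2-week NEBNext groups Ccr2 lies at 11.1 to 35.1 CPM in F/F hearts and 0.752 to 1.52 CPM in wild type hearts, while Cd163 and Timd4 overlap.

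Set side by side, the class medians at 2 weeks were a log2 fold change of 4.26 for the recruited-type genes, 0.83 for the resident-type genes and 2.18 for the other 34. Every recruited-type gene had a larger fold change than every resident-type gene, from 3.67 for Ly6c2 down to 1.74 for Mrc1 at the boundary. The classes were set with earlier results of these data known, so this order is a description and was not tested. The recruited-type genes also started lower. Per transcript length, they were at 0.123 to 0.702 deposited TPM in wild type hearts (group means), the resident-type genes at 1.62 to 29.9 TPM and the other 34 at 0.222 to 263 TPM. Over the 43 genes, the Spearman correlation of the log2 fold change with wild type TPM was -0.6, and over the 34 genes outside both classes it was -0.54. Genes are not independent replicates, and a low control level enters both quantities, so this is a description only. As a mean of log2(CPM + 1), the recruited-type genes were at 3.11 ± 0.98 in F/F hearts and 0.55 ± 0.1 in wild type hearts. The resident-type genes were at 4.68 ± 0.27 in F/F hearts and 3.92 ± 0.36 in wild type hearts (SD, n = 5 and 7). The sum over the 4 recruited-type genes was 42.9 ± 27 CPM in F/F hearts and 2.04 ± 0.418 CPM in wild type hearts, and the sum over the 5 resident-type genes was 181 ± 39.7 CPM in F/F hearts and 93.2 ± 23.2 CPM in wild type hearts. Both sums were higher in every F/F heart than in any wild type heart.

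**Figure D2:**
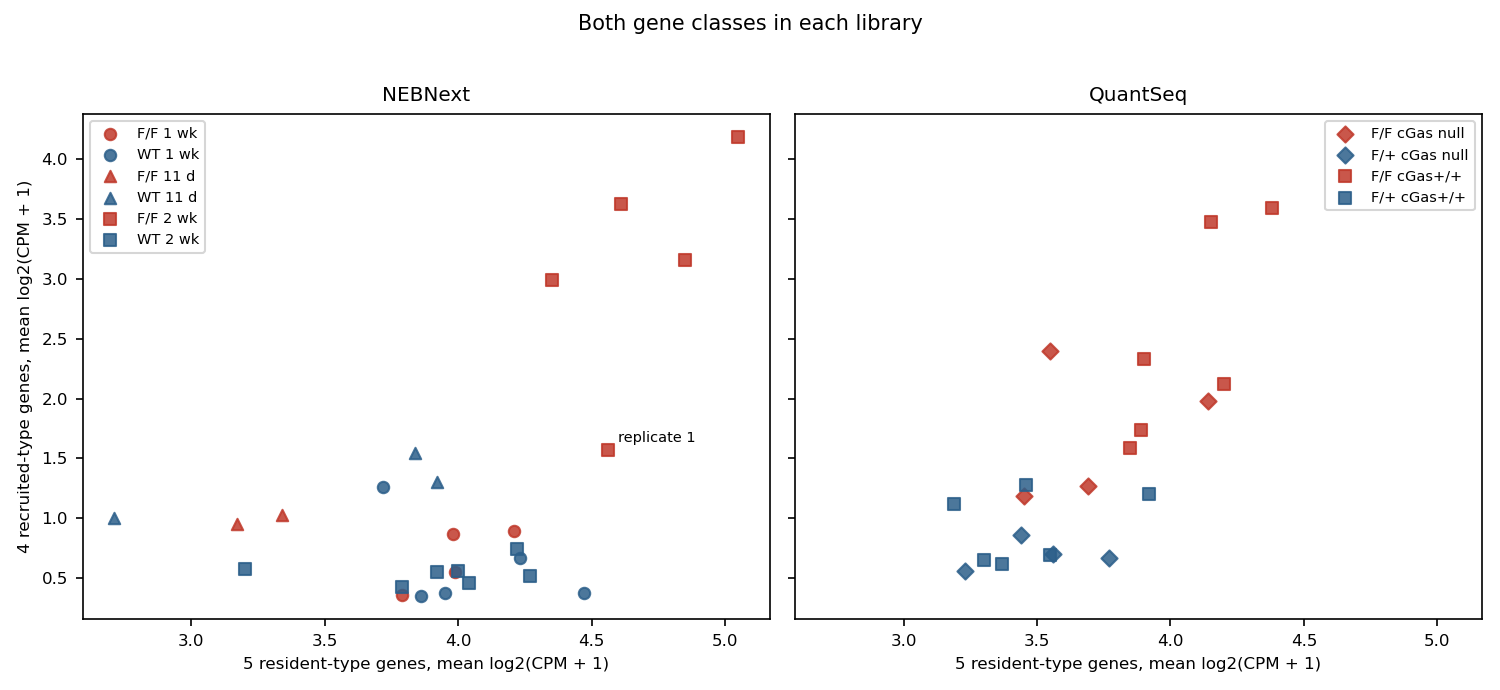
Each point is a library, placed by the mean log2(CPM + 1) of the 5 resident-type genes on the horizontal axis and of the 4 recruited-type genes on the vertical axis; colours give F/F or control, and shapes give time or cGas genotype. In the 2-week NEBNext groups the F/F hearts average 3.11 on the vertical axis and the wild type hearts 0.55, and replicate 1 is the lowest F/F heart at 1.57.

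The lineage genes came next. Spi1 rose by a log2 fold change of 1.97 ± 0.35 at 2 weeks. Csf1r, the receptor for the survival factors Csf1 and Il34, was at 64.2, 112, 205, 103 and 148 CPM in F/F hearts, against 56.3 to 74.4 CPM in wild type hearts (median 67.8 CPM). The first F/F heart lay inside the wild type range, and Csf1r had the smallest fold change of the called genes after Lyve1 (0.87 ± 0.23, edgeR adjusted p = 0.00605). The pan-leukocyte genes all rose: Ptprc (CD45) by 2.13 ± 0.32, Laptm5 by 1.62 ± 0.32, Cd53 by 2.19 ± 0.25 and Coro1a, an actin regulator of leukocytes, by 2.21 ± 0.31. Among surface and lysosomal genes of macrophages, all 6 rose. Adgre1, which encodes the macrophage antigen F4/80, was at 20.1, 45.8, 95.3, 49.3 and 64 CPM in F/F hearts, against 10.4 to 16.6 CPM in wild type hearts (median 14 CPM), a log2 fold change of 1.77 ± 0.22 without overlap. Cd68, a lysosomal glycoprotein, was at 20.5, 74.2, 140, 85 and 86.4 CPM in F/F hearts, against 10.8 to 17.1 CPM in wild type hearts (median 13.2 CPM), a log2 fold change of 2.32 ± 0.31, again without overlap. The protease gene Ctss, the pore-forming Mpeg1, Aif1 (Iba1) and the lysozyme Lyz2 rose by 2.72, 2.54, 2.36 and 2.03. Lyz2 was the most abundant member per length, at 263 ± 46.6 deposited TPM in wild type hearts.

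Effector genes rose by log2 fold changes from 1.35 for F13a1 up to 3.44 for Itgax. The integrins Itgam (CD11b) and Itgax (CD11c) rose by 2.38 ± 0.27 and 3.44 ± 0.46, and the NADPH oxidase subunits Cybb, Ncf1 and Ncf4 by 2.18, 1.69 and 2.15. All 6 genes of Fc receptors and their adaptors rose. Fcgr1, the high-affinity IgG receptor, was at 5.27, 31.7, 67.5, 28.8 and 39.4 CPM in F/F hearts, against 3.18 to 5.93 CPM in wild type hearts (median 4.38 CPM). The first F/F heart lay inside the wild type range and the other 4 well above it (2.64 ± 0.36, edgeR adjusted p = 1.54e-05). Fcgr2b, the inhibitory receptor, rose by 2.00 ± 0.33, Fcgr3 by 1.81 ± 0.27, the signalling adaptors Fcer1g and Tyrobp by 2.12 and 1.90, and Fcrls by 1.91. Of the scavenger, lectin and checkpoint receptors, Msr1 rose by 2.91, Clec4n (Dectin-2) by 2.93 and Havcr2 (Tim-3) by 2.43. The endotoxin co-receptor Cd14 rose by 1.79, Tlr2 by 1.91 and Ly86 by 2.35. F13a1, the A subunit of coagulation factor XIII, rose by 1.35. Cx3cr1, the fractalkine receptor of patrolling monocytes and many tissue macrophages, was at 4.54, 14.2, 24, 11.2 and 13.8 CPM in F/F hearts, against 0.962 to 3.82 CPM in wild type hearts (median 2.16 CPM), a log2 fold change of 2.47 ± 0.34 without overlap.

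Members of the list that belong to lipid-associated and injury macrophages were among its largest changes. Lgals3, which encodes galectin-3, was at 22.6, 117, 198, 151 and 159 CPM in F/F hearts, against 3.03 to 9.61 CPM in wild type hearts (median 4.46 CPM). All F/F hearts were above all wild type hearts (log2 fold change 4.41 ± 0.43, edgeR adjusted p = 4.12e-07). Gpnmb, a transmembrane glycoprotein of phagocytes, was at 3.2, 7.69, 28.8, 14.3 and 15.9 CPM in F/F hearts, against 0.611 to 1.53 CPM in wild type hearts (median 1.05 CPM), a log2 fold change of 3.45 ± 0.45 without overlap. Trem2, a lipid-sensing receptor, was at 4.26, 23.9, 36.6, 21.3 and 29.4 CPM in F/F hearts, against 1.7 to 4.28 CPM in wild type hearts (median 2.48 CPM). The first F/F heart lay inside the wild type range (2.88 ± 0.41, adjusted p = 2.15e-05). Of 9 further genes of this state that are no members, 4 rose, where 16.2% of all genes did. These were Spp1 (osteopontin) by 7.12 ± 0.73 and, by much less, Plin2 (0.71 ± 0.21), Ctsb (0.63 ± 0.17) and Pld3 (0.51 ± 0.18). Apoe (0.49 ± 0.25), Cd9 (0.45 ± 0.21), Fabp5 (-0.31 ± 0.24), Lpl and Ctsd did not pass.

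**Figure D3:**
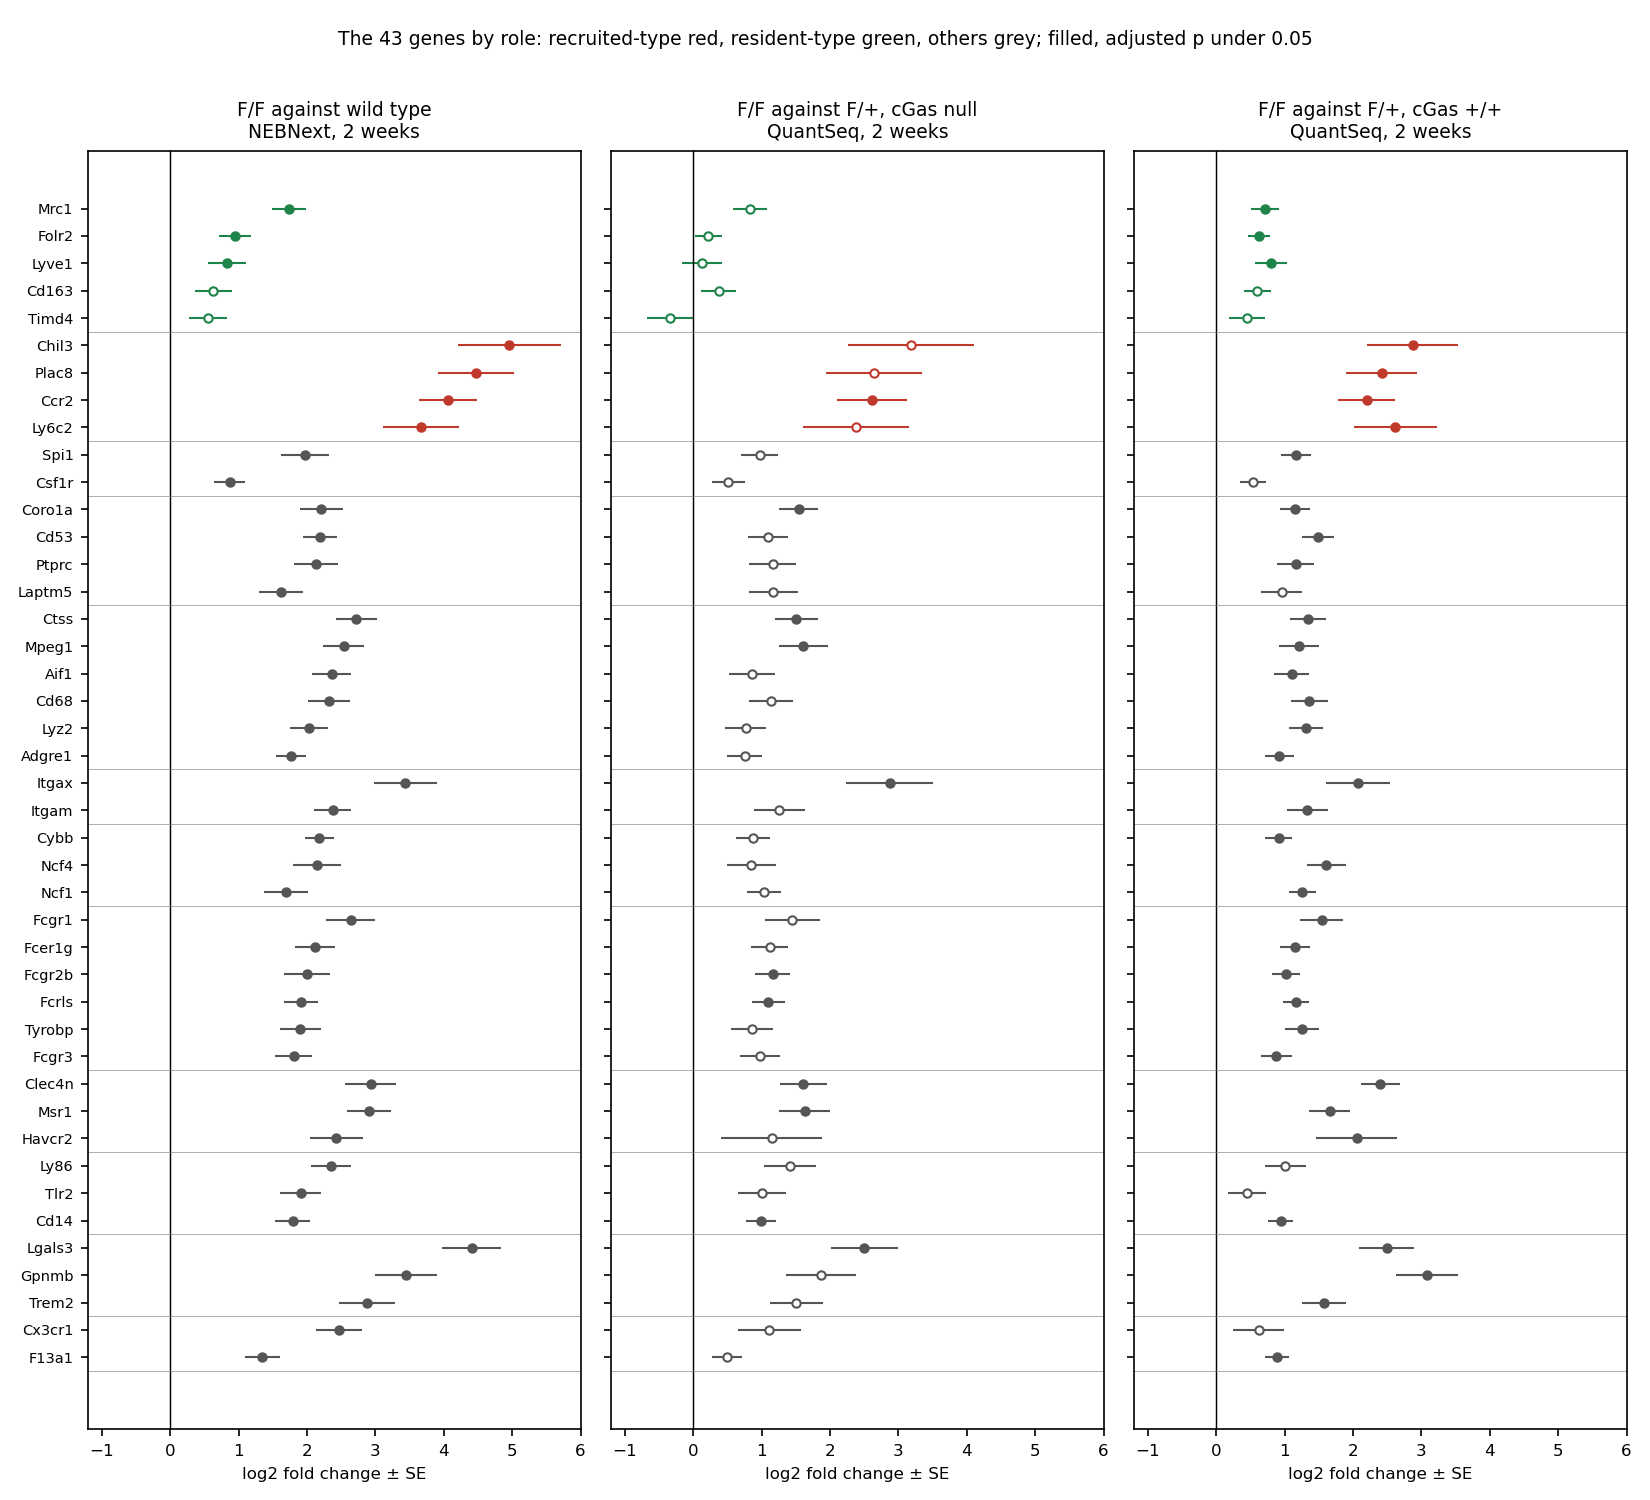
Log2 fold change with its SE for the 43 genes, grouped by role, in 3 panels with a zero line: F/F against wild type in NEBNext, then F/F against F/+ in cGas null and in cGas +/+ hearts in QuantSeq, all at 2 weeks; filled points have an adjusted p under 0.05. Recruited-type genes, in red, lie between 3.67 and 4.96 in the first panel and resident-type genes, in green, between 0.55 and 1.74.

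One of the 5 F/F hearts of 2 weeks stood apart. In F/F replicate 1, 33 of the 43 genes were above the highest wild type heart, against 40 to 42 in replicates 2 to 5, and the median log2 difference from the wild type mean was 0.82, against 1.86 to 2.98. The share of all genes above the highest wild type heart was not counted for single hearts. The members did not shift evenly in it. Over the 43 genes, its difference from wild type had a Spearman correlation of -0.52 with the GC content of the longest annotated transcript, and the mean of replicates 2 to 5 had one of 0.02. The 21 genes of lower GC content (38.4 to 48.3%) had a median log2 difference of 1.07 in replicate 1, and the 22 of higher GC content (48.5 to 58.9%) one of 0.57. In replicates 2 to 5 these medians were 2.23 and 2.35. Over all genes tested, the deviation of replicate 1 from the NEBNext mean also correlated with GC content (rho = -0.52), while the values were -0.52 to 0.06 over the F/F hearts of 2 weeks and -0.33 to 0.19 over the wild type hearts. Ccr2, at 39.4% GC, was as high in replicate 1 as in replicates 2 and 4, while 10 members lay inside the wild type range: Cd14, Cd163, Csf1r, Fcgr1, Folr2, Ncf4, Spi1, Timd4, Tlr2 and Trem2, at 44.4 to 58.9% GC. It also had the most ventricular muscle marker transcript of the F/F hearts, at 66600 CPM (36300 to 56900 CPM in replicates 2 to 5, and 79000 to 97800 CPM in wild type hearts). Its fibroblast markers were the lowest of the F/F hearts, at 1470 CPM (2980 to 5040 CPM in the other 4). Mitochondrially encoded transcripts made up 22.7% of its counts, against 8.3 to 12.5% in the other 4 and 11.1 to 19% in wild type hearts. What part these properties had in its values was not tested. Without it 41 members were called, with Lyve1 lost and Cd163 gained, among 5261 genes called in all (4562 with it). An alternative chosen after seeing the data took a trend in GC content and transcript length out of every library. It called 41 members too, among 4948 genes called in all.

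**Figure D4:**
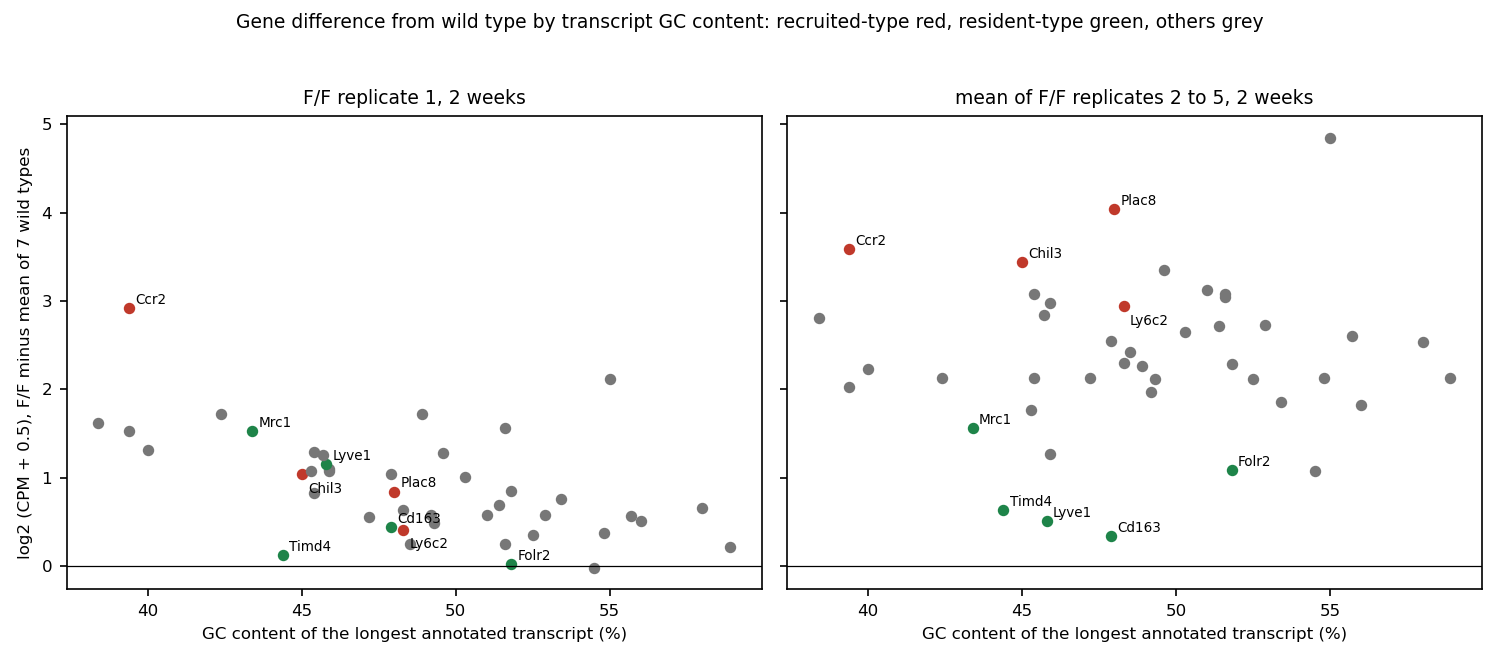
Difference in log2(CPM + 0.5) from the mean of the 7 wild type hearts, for each of the 43 genes by the GC content of its longest transcript, in F/F replicate 1 and as the mean of F/F replicates 2 to 5, both at 2 weeks. The Spearman correlation is -0.52 in replicate 1 and 0.02 in the mean of the other 4.

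The labels put the 2-week NEBNext libraries in a pair of pools. In pool KIUC033 (2 F/F and 5 wild type hearts) the median log2 difference of the 43 genes was 1.46, and in pool KIUC035 (3 F/F and 2 wild type hearts) it was 2.57. All 43 genes were higher in F/F hearts in both pools, as group means. The recruited-type median was 2.23 in KIUC033 and 3.75 in KIUC035, and the resident-type median 0.43 and 1.07. Fitted alone, KIUC033 gave 20 called members among 349 genes called in all, and KIUC035 gave 41 among 4894. F/F replicate 1 was 1 of the 2 F/F hearts of KIUC033.

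Before 2 weeks no gene of the list was called. At 1 week 0 of the 43 genes were called, and 0 had an unadjusted p under 0.05, which 9.85% of all genes had (edgeR; DESeq2 also called 0 members), against adjusted calls for 0.0064% of all genes tested that rose and 0.0192% that fell. The median log2 fold change was -0.01. Ccr2 was at 0.232, 2.37, 0.721 and 2.34 CPM in F/F hearts, against 0.62, 0.595, 0.137, 0.725 and 2.52 CPM in wild type hearts, and Mrc1 was at 15.6, 24.2, 9.59 and 19.4 CPM in F/F hearts, against 23.2, 17.9, 11.4, 21.4 and 21.7 CPM in wild type hearts. The groups overlapped for both genes. The 95% interval of the log2 fold change at 1 week ran from -0.59 to 1.62 for Ccr2 and from -0.78 to 0.38 for Mrc1. At 11 days 0 genes were called, 1 had an unadjusted p under 0.05, which 8.33% of all genes had (edgeR; DESeq2 also called 0 members), and 0% of all genes tested were called. The median log2 fold change was -0.25 for the list and -0.07 for all genes. Ccr2 was at 0.697 and 0.365 CPM in F/F hearts, against 0.379, 1.45 and 0.841 CPM in wild type hearts. Lyve1 was at 10.4 and 6.94 CPM in F/F hearts, against 4.17, 26.7 and 16.1 CPM in wild type hearts, so that the F/F values lay inside the wild type range. The gene with the unadjusted p was Havcr2, with 0 and 0 reads in F/F hearts, against 3, 5 and 11 reads in wild type hearts. In 6 genes both F/F hearts were below all 3 wild type hearts, and 11% of all genes were so placed. The 11-day libraries of both genotypes had more counts from GC-rich transcripts than the other NEBNext libraries (rho with GC content of 0.52 to 0.55 for F/F hearts and 0.35 to 0.48 for wild type hearts), and no pool held libraries of more than 1 time, so levels are not compared across times.

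The F/F effect itself was compared between 2 weeks and 1 week as an interaction. It was larger at 2 weeks for 36 of the 43 genes and smaller for 0, against 6.52% of all genes tested that were called higher and 5.88% called lower. These contrasts share their libraries with the comparisons within each time. Each time had its own pools, so a change of the effect with time cannot be told apart from one between pools. The 2 pools of 2 weeks themselves had list medians of 1.46 and 2.57. The change in the log2 effect was 4.73 ± 0.89 for Ly6c2, 4.39 ± 0.91 for Plac8 and 3.54 ± 0.71 for Ccr2. For Chil3, with 0 reads in 2 of 4 F/F hearts at 1 week, it was 2.90 ± 2.14 and did not pass (edgeR adjusted p = 0.387). Of the resident-type genes only Mrc1 passed, at 1.94 ± 0.39. Folr2 (0.99 ± 0.33, adjusted p = 0.0523), Lyve1 (1.00 ± 0.43, adjusted p = 0.124), Cd163 (0.81 ± 0.4, adjusted p = 0.177) and Timd4 (0.45 ± 0.41, adjusted p = 0.502) did not. Csf1r (0.66 ± 0.33) and Laptm5 (1.34 ± 0.47) were the other 2 members that missed the threshold.

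In the QuantSeq set with cGas +/+, 36 of the 43 genes were higher in F/F than in F/+ hearts and 0 lower, against 3.74% of all 14812 genes tested that rose and 0.891% that fell. The median log2 fold change was 1.16, and -0.01 over all genes. In 28 genes every F/F heart was above every F/+ heart, which held for 2.39% of all genes. All 4 recruited-type genes rose, but the calls of Plac8, Ly6c2 and Chil3 were lost without F/+ replicate 1 or without F/+ replicate 3, at adjusted p between 0.0505 and 0.0706. The list count was then 22 and 21, among 190 and 201 genes called in all, against 686 in the full fit. These replicates were the only males among the 6 F/+ hearts, and the part of sex in the lost calls was not tested. Ccr2 was at 7.42 to 45.2 CPM in the 6 F/F hearts (median 12.4 CPM), against 1.85 to 6.27 CPM in the 6 F/+ hearts (median 2.72 CPM), without overlap (2.20 ± 0.42, edgeR adjusted p = 0.00395). Plac8 was at 1.28 to 13.5 CPM in F/F hearts (median 4.07 CPM), against 0.443 to 1.67 CPM in F/+ hearts (median 0.768 CPM), with 1 F/F heart inside the F/+ range (2.42 ± 0.52, adjusted p = 0.00834). Ly6c2 was at 1.39 to 10.4 CPM in F/F hearts (median 3.11 CPM), against 0.0946 to 1.32 CPM in F/+ hearts (median 0.465 CPM), a log2 fold change of 2.62 ± 0.6. Chil3 was at 0.372 to 2.37 CPM in F/F hearts (median 1.02 CPM), against 0 to 0.429 CPM in F/+ hearts (median 0.0832 CPM), a log2 fold change of 2.87 ± 0.66. Ly6c2 did not overlap between the groups and Chil3 did.

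Again 3 of the 5 resident-type genes rose. Lyve1 was at 40.5 to 58.7 CPM in F/F hearts (median 50.9 CPM), against 18.6 to 47.7 CPM in F/+ hearts (median 24.2 CPM), and rose by 0.80 ± 0.23 on the log2 scale (edgeR adjusted p = 0.0482). Mrc1 was at 27 to 65.8 CPM in F/F hearts (median 47.5 CPM), against 19.2 to 35.1 CPM in F/+ hearts (median 26.4 CPM), a log2 fold change of 0.71 ± 0.2 (adjusted p = 0.0436). Both overlapped with F/+ hearts. Folr2 was at 12.4 to 22.4 CPM in F/F hearts (median 15.8 CPM), against 9.58 to 11.9 CPM in F/+ hearts (median 11 CPM), and the groups did not overlap although the fold change was small (0.62 ± 0.16, adjusted p = 0.0273). All 3 calls lie near the threshold: leaving out 1 library lost the call in 9 of 12 cases for Lyve1, 8 of 12 for Mrc1 and 5 of 12 for Folr2, at adjusted p up to 0.2. Cd163 (0.60 ± 0.2, adjusted p = 0.0965) and Timd4 (0.45 ± 0.26, adjusted p = 0.353) did not pass. The class medians were 2.52 for recruited-type, 0.62 for resident-type and 1.19 for the other 34 genes, the same order as in NEBNext. Among those others Gpnmb was at 1.3 to 5.08 CPM in F/F hearts (median 2.09 CPM), against 0.0492 to 0.429 CPM in F/+ hearts (median 0.271 CPM), the largest log2 fold change of the list here (3.08 ± 0.45). Lgals3 was at 27.1 to 96.1 CPM in F/F hearts (median 42 CPM), against 3.88 to 17.3 CPM in F/+ hearts (median 5.78 CPM), a log2 fold change of 2.49 ± 0.4. Neither gene overlapped between the groups. Csf1r (0.54 ± 0.19, adjusted p = 0.114), Cx3cr1 (0.62 ± 0.37, adjusted p = 0.384), Tlr2 (0.45 ± 0.28), Ly86 (1.01 ± 0.3) and Laptm5 (0.96 ± 0.3) were not called.

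In cGas null hearts the same contrast gave 11 genes higher in F/F than in F/+ hearts and 0 lower, against 0.5% of all genes tested that rose and 0.027% that fell. In 9 genes every F/F heart was above every F/+ heart, which held for 3.21% of all genes. The 11 were Ccr2, Lgals3, Ctss, Msr1, Fcgr2b, Itgax, Coro1a, Clec4n, Fcrls, Cd14 and Mpeg1. The median log2 fold change of the list was 1.12, beside 1.16 with cGas, and 42 of the 43 estimates were positive. This arm has 4 hearts a group, and 1 library decides the count: it was 0 without F/F replicate 1 or 4 or F/+ replicate 3 or 4, 1 without F/+ replicate 2, 5 without F/F replicate 2 and 18 without F/F replicate 3. Calls over all genes moved alike, with 78 in the full fit, 7 to 12 in those 4 settings, and 18, 39 and 175 in the other 3. The 4 F/+ cGas null hearts were all male, so sex in that group is adjusted for only through the other groups, and without the sex term 1 member was called, among 21 genes in all. Ccr2 was at 18.5, 7.02, 4.82 and 20.2 CPM in F/F hearts, against 3.2, 2.48, 2.89 and 1.81 CPM in F/+ hearts, without overlap (2.61 ± 0.51, edgeR adjusted p = 0.0215). Plac8 was at 1.8, 0.717, 1.11 and 3.85 CPM in F/F hearts, against 0.366, 0.497, 0.258 and 0.332 CPM in F/+ hearts. Its groups did not overlap either, but it was not called (2.64 ± 0.7, adjusted p = 0.0814). Ly6c2 was at 1.68, 1.04, 0.782 and 3.07 CPM in F/F hearts, against 0.869, 0.344, 0.172 and 0.147 CPM in F/+ hearts (2.38 ± 0.77, adjusted p = 0.177). Chil3 was at 0.639, 0.215, 0.247 and 0.852 CPM in F/F hearts, against 0, 0, 0.129 and 0.111 CPM in F/+ hearts (3.18 ± 0.92, adjusted p = 0.124).

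Of the resident-type genes 0 of 5 were called in cGas null hearts, with 1 at an unadjusted p under 0.05 (edgeR; DESeq2 also called 0). Only 0.5% of all genes tested rose and 0.027% fell in this contrast, so 0 of 5 does not set the class apart. Mrc1 was at 66.4, 32.6, 24.9 and 33.2 CPM in F/F hearts, against 20.7, 25, 26.9 and 25.9 CPM in F/+ hearts (0.83 ± 0.25, edgeR adjusted p = 0.145). Lyve1 was at 55.8, 30.8, 29.6 and 28.4 CPM in F/F hearts, against 26.2, 37, 40.7 and 24 CPM in F/+ hearts (0.13 ± 0.29, adjusted p = 0.936). Its estimate was -0.3 without F/F replicate 1, the 1 heart above the rest. Folr2 was at 14.7, 12.9, 9.02 and 12.4 CPM in F/F hearts, against 12.1, 10.4, 12.3 and 8.81 CPM in F/+ hearts. Cd163 was at 13.3, 8.89, 9.43 and 6.69 CPM in F/F hearts, against 6.4, 7.42, 11.1 and 5.16 CPM in F/+ hearts. Timd4, the only member with a negative estimate, was at 0.999, 1.43, 0.906 and 1.14 CPM in F/F hearts, against 1.6, 1.41, 1.55 and 0.774 CPM in F/+ hearts (-0.34 ± 0.34, adjusted p = 0.829). The groups overlapped for all 5 resident-type genes. F/F replicate 3 was the weakest of its group over the list, with a median log2 difference of 0.12 from F/+ hearts (0.48 to 1.25 in the other 3). It was from a female, and it also had 3950 CPM of atrial marker transcripts, against 153 to 743 CPM in the other 3. The parts of sex and of atrial tissue in its values were not tested.

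Macrophage genes outside both classes also varied among cGas null F/F hearts. Adgre1 was at 11.4, 5.7, 5.85 and 13.1 CPM in F/F hearts, against 7.04, 6.8, 4.82 and 5.27 CPM in F/+ hearts, and Cd68 was at 15.1, 8.56, 4.12 and 18.7 CPM in F/F hearts, against 7.22, 5.43, 5.9 and 5.6 CPM in F/+ hearts. Csf1r was at 54.3, 32.9, 26.9 and 59 CPM in F/F hearts, against 37.5, 29.2, 34.1 and 30.8 CPM in F/+ hearts. For each of these genes F/F replicates 1 and 4, the males of the group, were above all F/+ hearts. Of the females, replicate 2 was above them for Cd68 only and replicate 3 for none. Over the whole list, the mean log2(CPM + 1) was 3.72 and 3.69 in the males and 3.06 and 2.76 in the females. For recruited-type genes it was 1.98 and 2.4 against 1.27 and 1.19. For resident-type genes the sexes overlapped, at 4.14 and 3.55 against 3.69 and 3.45. The part of sex in these values was not tested. Trem2 was at 5.71, 3.22, 1.85 and 6.89 CPM in F/F hearts, against 1.87, 1.45, 2.02 and 1.81 CPM in F/+ hearts. Gpnmb was at 2.44, 0.717, 0.618 and 2.74 CPM in F/F hearts, against 0.411, 0.612, 0.517 and 0.479 CPM in F/+ hearts, without overlap but with its lowest hearts close to the F/+ range. Lgals3 was at 36.7, 20.1, 25.1 and 54.7 CPM in F/F hearts, against 8.05, 3.98, 5.82 and 8.33 CPM in F/+ hearts, well apart (2.50 ± 0.49, edgeR adjusted p = 0.0215). Fcgr1 was at 5.39, 3.12, 2.63 and 5.7 CPM in F/F hearts, against 3.25, 0.956, 1.64 and 1.51 CPM in F/+ hearts. Cx3cr1 was at 9.39, 6.66, 4.03 and 22.9 CPM in F/F hearts, against 9.74, 5.2, 4.95 and 3.72 CPM in F/+ hearts. Both overlapped between the groups. In cGas +/+ hearts the ranges for F/F against F/+ were 8.5 to 21.2 against 5.21 to 7.64 CPM for Adgre1, and 10.1 to 27.2 against 4.01 to 7.71 CPM for Cd68. They were 3.48 to 10.3 against 0.851 to 3.21 CPM for Trem2, and 3.2 to 15.3 against 1.75 to 3.11 CPM for Fcgr1. None of these 4 overlapped, whereas Csf1r (30.9 to 71.9 CPM in F/F, 24.5 to 38.4 CPM in F/+) and Cx3cr1 (3.34 to 18.2 CPM in F/F, 1.72 to 8.5 CPM in F/+) did.

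Whether the F/F effect differed between cGas null and cGas +/+ hearts was tested as an interaction. It was called for 0 of the 43 genes and for 0% of all genes tested, and 0 members had an unadjusted p under 0.05 (edgeR; DESeq2 also called 0). The median difference was -0.06, or -0.39 without the sex term. The intervals are wide. For Ccr2 the log2 difference was 0.41 (95% interval -0.99 to 1.81), for Plac8 0.22 (-1.6 to 2.04), for Ly6c2 -0.24 (-2.44 to 1.97) and for Chil3 0.30 (-1.97 to 2.57). For the resident-type genes it was 0.12 for Mrc1 (-0.57 to 0.81), -0.23 for Cd163 (-0.93 to 0.47), -0.40 for Folr2 (-0.95 to 0.15), -0.67 for Lyve1 (-1.46 to 0.12) and -0.79 for Timd4 (-1.69 to 0.1). A difference of 1 on the log2 scale thus lies inside the interval for all 4 recruited-type genes in at least 1 direction, and for Lyve1 and Timd4 in the negative one.

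Loss of cGas was also compared directly. Among F/F hearts, cGas null against cGas +/+ called 0 of the 43 genes and 0% of all genes tested (edgeR; 19 members and 5.74% of all genes had an unadjusted p under 0.05, and DESeq2 called 0 members). Of the 43 estimates 41 were negative, with a median of -0.59, while 50.3% of all genes were positive. The lowest estimates were those of Plac8 (-1.75, 95% interval -2.84 to -0.67), Ly6c2 (-1.45, -2.65 to -0.24) and Chil3 (-1.19, -2.46 to 0.08). Plac8 was at 0.717 to 3.85 CPM in cGas null F/F hearts and 1.28 to 13.5 CPM in cGas +/+ F/F hearts, where 2 of the 6 hearts held the values above 10 CPM. Among F/+ hearts the same contrast called 0 of the 43 genes and 0% of all genes tested (edgeR; 9 members and 4.16% of all genes had an unadjusted p under 0.05, and DESeq2 called 0 members), with 39 negative estimates and a median of -0.4, while 52.4% of all genes were positive. The estimates there were -1.97 for Plac8 (-3.55 to -0.4), -1.49 for Chil3 (-3.73 to 0.74), -1.21 for Ly6c2 (-3 to 0.58) and -1.18 for Ccr2 (-2.31 to -0.05). The F/+ contrast compares 4 males with 2 males and 4 females, and its median was -0.1 without the sex term and 0.04 when only these groups were fitted. The F/F and F/+ contrasts share no library, but each shares its libraries with the F/F against F/+ comparisons above.

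Ligands of these receptors moved with them. Of 8 ligand genes of Ccr2, Cx3cr1 and Csf1r 7 could be tested, and 6 rose in F/F hearts at 2 weeks in NEBNext, where 16.2% of all genes rose. The Ccr2 ligands Ccl2, Ccl7 and Ccl12 rose by 4.42 ± 0.52, 4.88 ± 0.49 and 3.99 ± 0.48, and the chemokine Ccl8 by 4.26 ± 0.55. Csf1 rose by 0.70 ± 0.14 and Cx3cl1 by 0.79 ± 0.29, and Il34 (0.11 ± 0.21) did not pass. In cGas null QuantSeq hearts 3 of 7 rose (Ccl2, Ccl7 and Ccl12, by 3.18, 2.83 and 2.87), and in cGas +/+ hearts 4 of 7 (the same 3 and Ccl8, by 3.40, 2.87, 2.52 and 2.46). Of 19 further genes of resident macrophages 14 rose at 2 weeks in NEBNext, with a median log2 fold change of 1.07, among them Cbr2 (1.17), the complement gene C1qa (1.39), Vsig4 (2.15) and Siglec1 (2.05). Cd209f, Cd209g, Gas6, Selenop and Ccl24 did not pass. Of 15 further monocyte genes 11 rose and 1 (Smpdl3a) fell, with a median of 2.24, among them Ms4a4c (4.76) and Arg1 (5.95). In QuantSeq, 0 of 17 tested further resident genes and 1 of 14 further monocyte genes rose in cGas null hearts (0.5% of all genes did), and 7 of 17 and 6 of 14 in cGas +/+ hearts (3.74% of all genes did).

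Markers of other cells moved too, and their part in the members' values was not tested. At 2 weeks in NEBNext, 16.2% of all genes tested rose and 13% fell, so a count of 0 or 1 in these short lists is near that share. Of the markers, 6 of 9 for T cells, 3 of 5 tested for NK cells, 4 of 9 for dendritic cells and 5 of 6 for fibroblasts rose. For neutrophils 1 of 5 tested rose, and 0 of 3 tested B cell and 0 of 5 tested mast cell markers did. Summed T cell markers were at 7.24 to 17.7 CPM in F/F hearts and 4.41 to 6.32 CPM in wild type hearts. Neutrophil markers were at 6.9 to 26.2 CPM in F/F hearts and 3.06 to 11.5 CPM in wild type hearts, overlapping. Itgam, Plac8 and Chil3 are shared with neutrophils. Lymphatic endothelial markers, which bear on Lyve1, included 1 that rose and 1 that fell of 6, and summed to 70.4 to 107 CPM in F/F hearts and 54.5 to 80.2 CPM in wild type hearts. Of 8 ventricular muscle markers 6 fell, and of 6 blood endothelial markers 0 rose and 2 fell. Atrial markers were at 431 to 3250 CPM in F/F hearts and 323 to 1300 CPM in wild type hearts, and 1 of 6 rose. With a score of these markers added to the fit, an alternative chosen after seeing the data, 41 members were called, among 4634 genes called in all. In cGas +/+ QuantSeq hearts 0 of 5 neutrophil, 0 of 3 T cell, 0 of 2 NK cell, 1 of 6 dendritic cell and 1 of 6 fibroblast markers tested rose. Of all genes tested, 3.74% rose in that contrast. Summed NK cell markers averaged 2.98 ± 1.34 CPM in those F/F hearts and 1.23 ± 0.514 CPM in F/+ hearts, fibroblast markers 1720 ± 314 CPM in F/F hearts and 1240 ± 352 CPM in F/+ hearts, and ventricular markers 25400 ± 5680 CPM in F/F hearts and 35000 ± 8160 CPM in F/+ hearts (SD, n = 6 each). All 3 sums overlapped between the groups.

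Close copies bear on some members, and how shared reads were counted was not stated in the sources used here. Windows of 50 bases were taken along the longest annotated transcript of each member and looked for in transcripts of other genes. None were found elsewhere for 28 of the 43 members. The share found elsewhere was 13.2% for Ly6c2, mostly in Ly6c1, a gene of blood endothelium that did not pass at 2 weeks in NEBNext (0.12 ± 0.16, edgeR adjusted p = 0.594). It was 29.4% for Chil3, mostly in Chil4, and 15.4% for Lyz2, mostly in Lyz1, which itself rose by 2.21 ± 0.47. It was 12.8% for Fcgr3 and 8.6% for Fcgr2b, mostly in each other, and 9.61% for Itgax, mostly in Itgad. Itgam (72.4%), Folr2 (56.7%) and Csf1r (17.7%) shared windows with the overlapping genes Gm49368, Gm10602 and Hmgxb3.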

How the data were processed

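Poly(A) RNA of mouse hearts was sequenced in 26 NEBNext and 20 QuantSeq libraries, with total counts of 8477358 to 33993289 per library. Counts per gene are used as the authors deposited them, per the file headers. The submitters' processing notes name STAR 2.7.9 and mm39. The sources used here give no counting tool, annotation or strand setting. A second deposited table holds TPM for the NEBNext libraries and CPM for the 20 QuantSeq libraries, per the file headers, and was used for levels per length (TPM) and in an alternative. All columns matched a labelled sample (0 did not).

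Counts were tested with edgeR 4.0.16 in R 4.3.3, with TMM scaling, a filter on low counts (minimum count 10, minimum total 15), the quasi-likelihood test and Benjamini-Hochberg adjustment over all genes tested, at 0.05. One fit held all NEBNext libraries (15627 genes) and another all QuantSeq libraries (14812 genes), with sex as a covariate and, at 2 weeks in NEBNext, the labelled pool. CPM in the text were computed from the counts with TMM scaling. The same steps were run on simulated counts with changes put into random genes. Those counts hold no effect of sex, pool or GC content, so they do not bear on these. Alternatives were DESeq2 1.42.0, limma 3.58.1 on log2(TPM + 1), other filters and designs, and leaving out each library. Replicate numbers follow accession order and pair no samples. GC content and length came from GENCODE M21 transcripts. The rule for named genes gave values by library to both classes and 8 further members. Groups of over 5 libraries are given by range and median or by range, and before 2 weeks values are printed for a few of these genes. The members, gene lists and tests were chosen with earlier results of these data known.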

Additional observations from a re-analysis of the deposited data

Results flagged for a closer look

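Of 136 pairs of gene and group tested for a single library far from the others, 7 had one, and chance alone gives about 1 in 20 groups. Lyve1 was at 55.8 CPM in cGas null F/F replicate 1, against 30.8 CPM in the next highest heart of its group. Csf1r was at 71.9 CPM in cGas +/+ F/F replicate 5, and the next heart at 45.9 CPM. In cGas +/+ F/+ replicate 6, 3 genes stood apart: Cd163 at 9.9 CPM (next 6.67 CPM), Trem2 at 3.21 CPM (next 1.72 CPM) and Chil3 at 0.429 CPM (next 0.148 CPM). At 1 week, Ccr2 was at 2.52 CPM in wild type replicate 5 (next 0.725 CPM), and Chil3 at 0.751 CPM in F/F replicate 2 (next 0.0708 CPM).

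The F/F effect differed between 2 weeks and 1 week, by the interaction in edgeR at an adjusted p under 0.05, for 36 of the 43 genes, all larger at 2 weeks. Time and pool cannot be told apart in it. The log2 difference of the effect was 4.73 for Ly6c2, 4.47 for Lgals3, 4.39 for Plac8, 3.54 for Ccr2, 3.42 for Gpnmb, 2.83 for Trem2, 2.58 for Fcgr1, 2.36 for Cd68, 2.33 for Cx3cr1, 1.94 for Mrc1 and 1.78 for Adgre1.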

How the results depend on the processing

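The counts of called genes at 1 week, for the change between 1 and 2 weeks and for the dependence on cGas stayed within 1.5 times of the values given, under the alternatives run. At 2 weeks in NEBNext the count was 20 in pool KIUC033 alone, which has 2 F/F hearts, among 349 genes called in all (4562 in the full fit). At 11 days it was 1 (lower) with no filter on low counts, among 201 genes called in all (0 in the full fit). In cGas null hearts 11 members were called, among 78 genes called in all. The count was 35 among 515 with no filter and 1 among 21 with no sex term. It was 24 (of 40 tested) among 246 with only the groups compared, and 21 among 251 with DESeq2. For cGas null against cGas +/+ it was 7 (all lower) in F/F and 3 (all lower) in F/+ hearts with no filter. Each of these was among 93 genes called in all, against 0 in the full fit. Leaving out 1 library gave 0 at 1 week, 0 to 1 at 11 days, 40 to 41 at 2 weeks, 31 to 39 for the change over time, 21 to 40 with cGas +/+ and 0 to 18 in cGas null hearts. The call at 11 days came without wild type replicate 1, among 235 genes called in all (0 in the full fit). Genes called in all were 3046 to 5261 at 2 weeks and 1130 to 2966 for the change over time. They were 190 to 1169 with cGas +/+ and 7 to 175 in cGas null hearts. The lowest counts with cGas +/+ were 21 without F/+ replicate 3 and 22 without F/+ replicate 1, among 201 and 190 genes called in all (686 in the full fit). These replicates were the only males of that F/+ group. The other cGas comparisons kept 0. Single genes were followed only for F/F against controls at 2 weeks, in NEBNext and in both cGas genotypes, and there 1 estimate changed sign: Lyve1 in cGas null hearts, to -0.3 without F/F replicate 1 (up to 0.27 without F/+ replicate 3). The list median changed sign for the dependence on cGas (-0.06, and 0.15 without cGas +/+ F/+ replicate 3), for cGas null against cGas +/+ in F/+ hearts (-0.4, and 0.04 with only the groups compared) and at 11 days (-0.25, and 0.07 without wild type replicate 3). At 1 week it also did, from -0.01 to as much as 0.19 with limma on log2(TPM + 0.1), where the median of all genes was 0.18. The causes were not tested. A GC and length offset (41, 36, 38 and 15 genes at 2 weeks, over time, with cGas +/+ and in cGas null hearts) and an atrial marker covariate (41, 37, 33 and 15) were chosen after seeing the data. Genes called in all were 4948, 1449, 969 and 135 with the offset, and 4634, 2126, 561 and 159 with the covariate. No paired analysis was possible because replicate numbers follow accession order and the labels pair no hearts. Depth limits Chil3, Ly6c2 and Plac8 in controls, where values rest on few reads.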
